A study of Homo sapiens with 15 samples.

Results

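The genes described here were 10 genes of pericellular proteolysis, MMP1, MMP2, MMP3, MMP9, MMP10, MMP14, TIMP2, TIMP3, ADAM12 and PLAU, taken from the 28395 genes of the count table by matching their Entrez numbers to these symbols. The matching used no measured values, but the symbols were chosen with earlier results of these data known. Matrix metalloproteinases (MMPs) are zinc enzymes that cut the proteins of the extracellular matrix and of the cell surface. Most are secreted as inactive proenzymes, which plasmin and other proteases activate, and the tissue inhibitors of metalloproteinases (TIMPs) block the active site. PLAU encodes urokinase, which turns plasminogen into plasmin, and ADAM12 encodes a membrane protease of the related ADAM family. In airway epithelium these enzymes are known for their part in wound repair and matrix turnover, and several MMP genes are induced through AP-1 and ETS factors.

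Total RNA was sequenced from BEAS-2B cells, an established line of immortalised human bronchial epithelial cells. The exposed cultures received 50 µg/mL of nanoplastics made from polyethylene terephthalate (PET-NPLs) for 24 h, 15 weeks or 30 weeks, with weekly passages and fresh particles at each change of medium. Controls of the same line, without particles, were passaged beside them for the same times. Each arm had 2 samples at 24 h and 2 at 15 weeks, and at 30 weeks there were 3 controls and 4 exposed samples. The labels put the samples of 24 h and 15 weeks in batch 1 and those of 30 weeks in batch 2, so the contrasts of exposed with control cells lie within a batch, while time and batch cannot be told apart between 15 and 30 weeks. The sources used here do not say whether samples of a group were separate cultures, so p-values measure the spread between these samples, which may be technical. In bulk RNA, fewer cells of a type and less RNA per cell cannot be told apart.

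The libraries held 23143202 to 31459990 counts. The bronchial label is that of the cell line and was not tested with these markers. KRT8 ranged from 127 to 710 CPM (CPM, the read count relative to a library size scaled by the TMM method) over the groups. EPCAM and CDH1 stayed below 1 CPM in every sample, and KRT5 was at 0 from 15 weeks. The 7 epithelial markers summed to 1990 to 2300 CPM in the 24 h controls, 854 to 898 CPM in the 15-week controls and 314 to 411 CPM in the 30-week controls, against 880 to 1100 CPM in the cells exposed for 30 weeks. The fall by 15 weeks was mostly that of KRT7, from a mean of 1310 to 18 CPM in controls, while KRT8 was at 482 and 545 CPM. The 7 fibroblast and mesenchymal markers summed to 1760 to 1870 CPM in the 24 h controls and 1480 to 1490 CPM in the 15-week controls. At 30 weeks they summed to 2030 to 2550 CPM in controls and 1770 to 2030 CPM in exposed cells. VIM alone was at 1030 to 1880 CPM over all samples, whereas COL3A1 stayed below 1 CPM. The 12 skeletal muscle genes examined summed to 176 to 200 CPM in the 30-week controls and 44.8 to 56.6 CPM in the cells exposed for 30 weeks. This sum was 121 to 152 CPM in the 24 h controls and 94.2 to 108 CPM in the 15-week controls. Most of it there was TTN, with means of 132 and 92.6 CPM, while MYOD1 had means of 0.383 and 3.87 CPM. At 30 weeks 5 of 7 tested genes were lower in exposed cells (edgeR adjusted p under 0.05), with 23.7% of all genes called either way. TTN and MYH3 were not, with means of 47.9 and 3.16 CPM in controls and 47.1 and 3.49 CPM in exposed cells. MYOD1, which sets muscle fate, was at 65.8 to 106 CPM in the 30-week controls and 0.313 to 0.761 CPM in the exposed cells. MYF5 and MYF6 were at 0 in both groups. Exposed replicate 2 at 30 weeks stood apart from the other exposed samples, with Pearson correlations of 0.976 to 0.981 on log2 CPM where the others reached 0.991 with each other.

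MMP1, MMP3 and MMP10 lie in a cluster of 9 MMP genes that spans 435 kb of chromosome 11 (GRCh38), at 11:102789919-102798160, 11:102835801-102843609 and 11:102770502-102780628, all on the minus strand. In this cluster 6 of the 9 genes had no more than 3 counts in any sample. The other members are spread over the genome, with MMP2 at 16:55478830-55506691, MMP9 at 20:46008908-46016561, MMP14 at 14:22836585-22847758, TIMP2 at 17:78852977-78925387, TIMP3 at 22:32801705-32863041, ADAM12 at 10:126012391-126388477 and PLAU at 10:73908832-73917494. The GENCODE annotation places exons of the pseudogene WTAPP1 opposite those of MMP1 and MMP3, exons of the noncoding C10orf55 opposite PLAU, and noncoding exons opposite MMP9 and TIMP2. It is not given in the sources used here whether the counting used strand, so reads of these pairs may not be separable, although WTAPP1 itself had at most 4 counts in any sample. Exons of MMP2 and TIMP2 also overlap a gene of their own strand.

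RefSeq promoter windows of GRCh38.p14, from 250 bases before to 50 after a transcript start, were available for 5 of the 10 members. The upstream 250 bases are printed for TIMP3, PLAU and ADAM12 because these 3 members were lower together in exposed cells at 30 weeks. Capitals mark matches to the GC box (GGGCGG) and to an ETS core (AGGAAG), searched on both strands together with AP-1 (TGANTCA) and the TATA box (TATAAA). Matches of different motifs shared no base.
TIMP3 chr22:32801455-32801704 (+): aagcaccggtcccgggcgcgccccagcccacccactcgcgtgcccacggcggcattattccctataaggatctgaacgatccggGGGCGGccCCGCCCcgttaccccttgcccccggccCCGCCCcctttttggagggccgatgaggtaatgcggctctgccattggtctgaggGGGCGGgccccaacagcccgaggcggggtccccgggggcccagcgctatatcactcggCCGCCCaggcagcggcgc
PLAU chr10:73910882-73911131 (+): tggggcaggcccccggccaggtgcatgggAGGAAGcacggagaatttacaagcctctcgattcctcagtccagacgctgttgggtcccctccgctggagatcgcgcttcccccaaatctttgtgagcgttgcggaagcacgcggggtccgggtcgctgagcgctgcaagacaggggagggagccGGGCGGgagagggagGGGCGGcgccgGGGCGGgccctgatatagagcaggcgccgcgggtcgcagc
ADAM12 chr10:126388478-126388727 (-): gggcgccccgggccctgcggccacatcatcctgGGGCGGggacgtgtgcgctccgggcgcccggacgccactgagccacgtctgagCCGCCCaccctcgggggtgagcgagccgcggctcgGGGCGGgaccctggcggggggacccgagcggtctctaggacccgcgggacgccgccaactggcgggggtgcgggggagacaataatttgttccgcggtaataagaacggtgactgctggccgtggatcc

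TIMP3 held 5 GC boxes, with first bases at -166, -158, -131, -76 and -18 from the start. PLAU held 3 GC boxes, at -66, -51 and -40, and an ETS core at -221, whereas a second annotated PLAU window, at chr10:73910360-73910659, held none of the 4 motifs. ADAM12 held 3 GC boxes, at -217, -164 and -129, and an ETS core on the reverse strand at position 33, in the bases after the start that are not printed. Of all 35116 promoter windows of this length, 44.954% held a GC box, 33.648% an ETS core, 7.709% the AP-1 letters and 11.53% the TATA letters, so that a GC box is a common feature and these matches are a description only. Among the other members with a window, that of MMP10 held an AP-1 match at -67 and a TATA box at -31, and that of MMP14 held 1 GC box at -66.

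The level per kilobase (kb) of canonical transcript, which allows genes to be compared, placed PLAU first in the 24 h controls at 54.1 CPM per kb, followed by TIMP2 at 34.0 and MMP14 at 28.6. The samples of TIMP2 and MMP14 overlapped, so this pair was not separated. ADAM12 came next at 12.1 CPM per kb. MMP1, MMP3, MMP2 and TIMP3 lay between 5.15 and 3.58 CPM per kb, with each overlapping its neighbour in the order, and MMP9 at 0.432 and MMP10 at 0.0296 were the lowest. By 30 weeks TIMP2 led the list, at 115 CPM per kb in controls and 131 in exposed cells, though its control samples overlapped those of PLAU at 80.6. In the 30-week controls MMP1 at 0.0829 and MMP3 at 0.0198 CPM per kb had dropped below MMP9 at 0.353. In the exposed cells of 30 weeks the samples of MMP2 and TIMP3 overlapped, as did those of MMP1, MMP3 and MMP9 along the order.

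**Figure D1:**
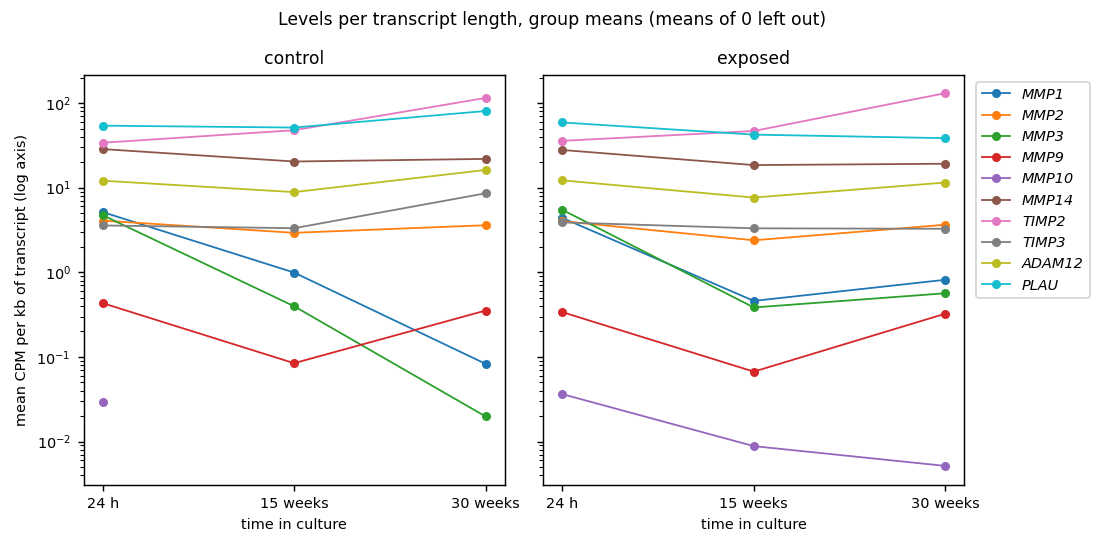
Mean level of each of the 10 genes in CPM per kb of canonical transcript (log axis) at 24 h, 15 weeks and 30 weeks in culture, with controls on the left and cells exposed to PET-NPLs on the right (2 samples a group, 3 controls and 4 exposed at 30 weeks). MMP1 and MMP3 fall from 5.15 and 4.73 to 0.0829 and 0.0198 in controls, and are at 0.816 and 0.565 in the exposed cells at 30 weeks. Means of 0 are left out.

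MMP10, a stromelysin, was close to undetected. It had 0 to 3 counts in every sample and was left out of the tests by the filter on low counts, so changes in it were not detectable at this depth. The other 9 members were tested among 16740 genes.

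After 24 h of exposure no member was called different from the controls. By edgeR's quasi-likelihood test with Benjamini-Hochberg adjustment 0 of 9 members were called, against 0% of all genes tested, and 0 had an unadjusted p below 0.05, as for 277 of all genes. DESeq2 and limma-voom also called 0 members. The interstitial collagenase MMP1 was at 8.62 and 11.7 CPM in controls and 7.40 and 9.91 CPM in exposed cells. The stromelysin MMP3 was at 7.62 and 9.62 CPM in controls and 9.31 and 10.6 CPM in exposed cells. The groups overlapped for both genes. An approximate 95% interval of the log2 difference was taken as 2 standard errors (SE) on either side. It ran from -1.71 to 1.26 for MMP1 and from -0.64 to 1.07 for MMP3. For the more abundant MMP14 it ran only from -0.33 to 0.25.

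After 15 weeks of exposure 0 of 9 members were called, again beside 0% of all genes, and 0 had an unadjusted p below 0.05 where 823 of all genes did. Neither DESeq2, which called 18 genes, nor limma-voom, which called 0, called a member. The number of genes called at 15 weeks depended on the fit. With this time point fitted alone 304 of 15484 genes were called, and with surrogate variables 10 of 16740. MMP1 was at 2.08 and 1.83 CPM in controls and at 0.900 and 0.909 CPM in exposed cells, a log2 difference of -1.11 ± 0.909 (SE). These groups did not overlap, yet the interval of the difference ran from -2.93 to 0.71. PLAU was at 113 and 128 CPM in controls and at 96.3 and 102 CPM in exposed cells, with a log2 difference of -0.28 ± 0.188 (SE). TIMP3, which binds to the matrix and also inhibits ADAM proteases, was at 14.8 and 15.8 CPM in controls and 12.2 and 18.3 CPM in exposed cells. Here the exposed samples lay on either side of the controls, and the interval ran from -0.46 to 0.45.

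Between 24 h and 15 weeks MMP1, MMP3, MMP9 and MMP14 fell in both arms, while MMP2 was not called (edgeR adjusted p = 0.23 in controls and 0.0562 in exposed cells). In controls 4 of 9 members were called, all lower at 15 weeks, against 24.9% of all genes. In exposed cells 5 of 9 were called, all lower, against 26.0% of all genes. All these samples were of batch 1. Over the same interval the keratin KRT7 fell from 1220 to 1410 CPM to 12.7 to 23.4 CPM in controls and from 1350 to 1400 CPM to 5.29 to 6.39 CPM in exposed cells, and its part in the result was not tested. MMP3 fell from 8.62 ± 1.42 to 0.723 ± 0.396 CPM in controls (SD, n = 2 each; log2 change -3.56, edgeR adjusted p = 0.000102) and from 9.97 ± 0.933 to 0.700 ± 0.112 CPM in exposed cells (SD, n = 2 each; -3.83, edgeR adjusted p = 5.11e-05). MMP1 fell from 10.2 ± 2.16 to 1.96 ± 0.181 CPM in controls (log2 change -2.37, edgeR adjusted p = 0.0414) and from 8.66 ± 1.77 to 0.904 ± 0.00639 CPM in exposed cells (-3.25, edgeR adjusted p = 0.0123). Without 15-week control replicate 2 the MMP3 change in controls was -4.27. The MMP1 call in controls was lost on leaving out any of the 4 libraries, with adjusted p between 0.0888 and 0.191, and that in exposed cells on leaving out 24 h replicate 2 or either 15-week replicate (0.0629 to 0.0868). No sample of 15 weeks reached the lowest sample of 24 h for either gene.

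The gelatinase MMP9 and the membrane-anchored MMP14, which activates the MMP2 proenzyme, were also lower at 15 weeks. MMP9 had 27 and 31 counts in the 24 h controls and 5 and 8 in the 15-week controls, a log2 change of -2.33 (edgeR adjusted p = 0.00264), and changed by -2.29 in exposed cells (0.00481). Without 15-week exposed replicate 2 the latter was -1.64 with an adjusted p of 0.0676, and without replicate 1 it was -3.51. MMP14 went from 95.2 and 117 CPM to 70.0 and 81.0 CPM in controls (log2 change -0.49, edgeR adjusted p = 0.0212) and changed by -0.59 in exposed cells (0.00666). The MMP14 calls were lost without 24 h replicate 2 in each arm (0.219 and 0.0673), and without 15-week control replicate 1 (0.193) or exposed replicate 2 (0.0796). ADAM12 was called in exposed cells, from 97.6 and 96.5 to 59.1 and 62.4 CPM (-0.68, edgeR adjusted p = 0.0264), and lost the call without any of the 4 libraries (0.0989 to 0.141). Whether the change from 24 h to 15 weeks differed between the arms was not tested.

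At 30 weeks members were called in both directions. MMP1 and MMP3 were higher in exposed than in control cells, and TIMP3, ADAM12 and PLAU were lower, so that 5 of 9 members were called against 23.7% of all genes. The median log2 difference over the 9 members was -0.128, beside 0.00775 over all genes tested. MMP2, MMP9, MMP14 and TIMP2 were not called.

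**Figure D2:**
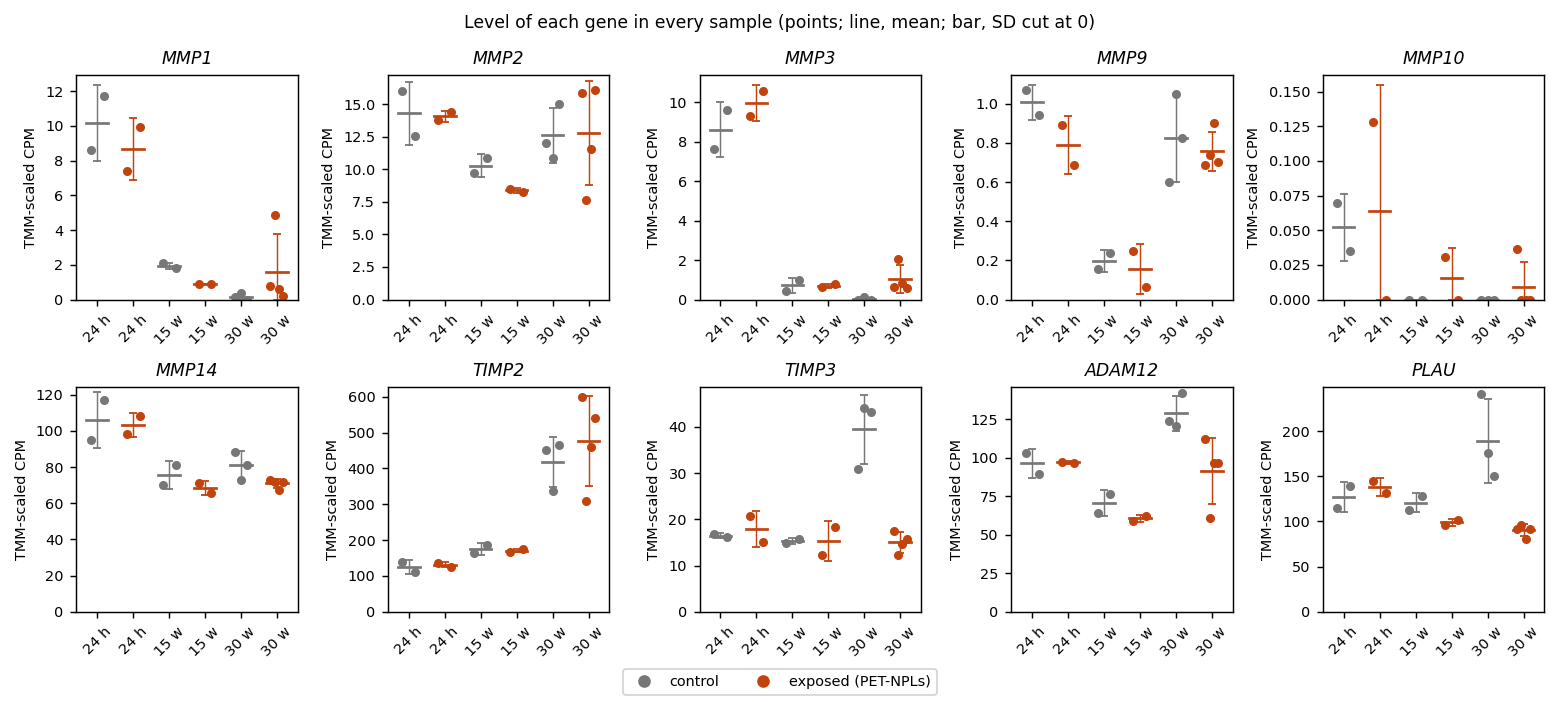
Level of each of the 10 genes in TMM-scaled CPM (vertical axes start at 0) in every sample, with 24 h, 15 weeks (15 w) and 30 weeks (30 w) along the horizontal axis, controls in grey and exposed cells in orange. Points are samples, lines are means and bars are SD. At 30 weeks all 4 exposed points of TIMP3, between 12.2 and 17.5 CPM, lie below the 3 controls at 30.9 to 44.2 CPM, while MMP1 in exposed cells is spread from 0.176 to 4.87 CPM.

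MMP3 cleaves proteoglycans, fibronectin and basement membrane proteins and activates other proMMPs. It had 0, 3 and 0 counts in the 3 control samples at 30 weeks and 18, 59, 24 and 16 counts in the 4 exposed samples. On the CPM scale these were 0, 0.108 and 0 in controls and 0.652, 2.07, 0.834 and 0.563 in exposed cells. Every exposed sample lay above every control, but at levels near the detection limit. The log2 difference was 4.61 ± 0.791 (SE; edgeR adjusted p = 0.000498), a fitted value that depends on the prior count because controls held 3 counts in all. These counts were all in control replicate 2, and without it the fitted value was 7.89, while without exposed replicate 2 it was 4.02 and without control replicate 3 it was 4.04. Summed over samples, 117 counts in exposed cells against 3 in controls gave a ratio of 27.2 with a 95% counting interval of 9.07 to 134, which covers counting error only. The call held without each sample in turn.

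MMP1 cleaves fibrillar collagens. Its counts at 30 weeks were 3, 10 and 0 in controls and 22, 139, 17 and 5 in exposed cells. These were 0.129, 0.361 and 0 CPM in controls and 0.797, 4.87, 0.591 and 0.176 CPM in exposed cells. The groups overlapped, since exposed replicate 4 lay below control replicate 2, and exposed replicate 2 held most of the exposed counts. The log2 difference was 3.26 ± 0.998 (SE; edgeR adjusted p = 0.0267). Without exposed replicate 2 it was 1.63 with an adjusted p of 0.051, and the call was also lost without control replicate 1 (0.107) or 3 (0.0842), where the difference was 3.14 and 2.65. Without control replicate 2, which held most of the control counts, it was 4.67. Exposed replicate 2 was the highest or the lowest of the exposed samples for 7 of the 9 tested members. These were MMP1, MMP2, MMP3, TIMP2, TIMP3, ADAM12 and PLAU. The share over all genes was not computed, so this count is a description only.

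TIMP3 was at 30.9, 44.2 and 43.3 CPM in the 30-week controls and at 17.5, 12.2, 14.7 and 15.7 CPM in the exposed cells. All exposed samples were lower than all controls, with 15.0 ± 2.18 CPM (SD, n = 4) against 39.4 ± 7.43 CPM (SD, n = 3). The log2 difference was -1.39 ± 0.172 (SE; edgeR adjusted p = 2.14e-05), or 2.62-fold lower, and the call held without each sample in turn. The exposed level was near that of 15 weeks, at 15.2 ± 4.32 CPM (SD, n = 2), and it was the control level that stood above the earlier 15.3 ± 0.706 CPM (SD, n = 2).

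PLAU was at 241, 176 and 150 CPM in the 30-week controls and at 91.9, 96.3, 80.9 and 91.6 CPM in the exposed cells. All exposed samples were again lower than all controls, and the log2 difference was -1.07 ± 0.143 (SE; edgeR adjusted p = 4.89e-05), a call that held without each sample in turn. C10orf55, which lies opposite PLAU, had 41 to 65 counts in controls and 23 to 38 in exposed cells, where PLAU had 2328 to 5601 counts over both groups. The study picked ADAM12 from these libraries as a putative biomarker, dysregulated at both 15 and 30 weeks in its own limma-voom fit with surrogate variables. In the fit used here its log2 difference at 15 weeks was -0.215 ± 0.21 (SE) and was not called. At 30 weeks ADAM12 was at 124, 121 and 142 CPM in controls and at 112, 61.2, 96.5 and 96.7 CPM in exposed cells. The groups did not overlap, and the log2 difference was -0.49 ± 0.159 (SE; edgeR adjusted p = 0.0343). Its call was lost without control replicate 1 (0.0789) or 3 (0.115) or exposed replicate 3 (0.0521) or 4 (0.0548), and without exposed replicate 2, its lowest sample, the difference was -0.34 with an adjusted p of 0.0196.

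Of the members that were not called, TIMP2 was the most abundant. TIMP2 inhibits MMPs and, with MMP14, takes part in activating proMMP2. It was at 451, 338 and 466 CPM in controls and 599, 310, 459 and 542 CPM in exposed cells, with a log2 difference of 0.19 (edgeR adjusted p = 0.505). The exposed samples reached beyond the controls on both sides. MMP14 was at 88.6, 72.9 and 81.3 CPM in controls and 72.6, 72.0, 67.5 and 71.7 CPM in exposed cells, and although all exposed samples were lower the difference of -0.19 was not called (edgeR adjusted p = 0.237). The gelatinase MMP2 was at 12, 10.9 and 15.0 CPM in controls and 15.9, 7.64, 11.6 and 16.1 CPM in exposed cells (0.02, edgeR adjusted p = 0.967). MMP9 had 14 to 29 counts in controls and 19 to 26 in exposed cells (-0.13, edgeR adjusted p = 0.83). In all, the samples of the groups did not overlap for MMP3, MMP14, TIMP3, ADAM12 and PLAU, 5 of 9 tested members, as was the case for 27.3% of all genes tested.

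**Figure D3:**
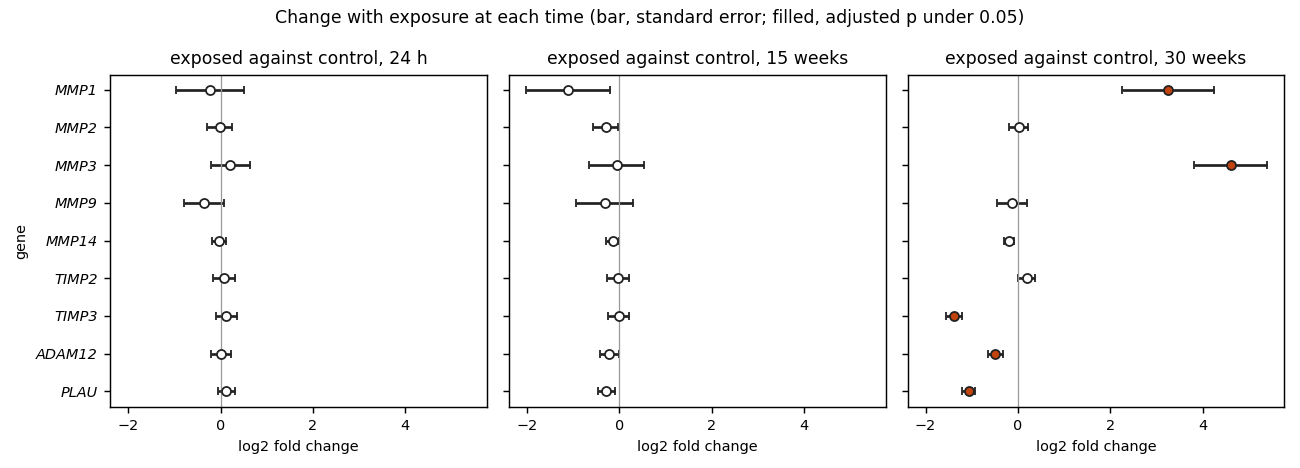
Log2 fold change of exposed against control cells for the 9 tested genes at 24 h (2 against 2 samples), 15 weeks (2 against 2) and 30 weeks (4 against 3), with the standard error as bars. Filled points passed an adjusted p under 0.05, which holds for no gene at 24 h or 15 weeks and at 30 weeks for MMP1 at 3.26, MMP3 at 4.61, TIMP3 at -1.39, ADAM12 at -0.49 and PLAU at -1.07.

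The exposure effects at 15 and 30 weeks were compared directly in an interaction term of the same fit. It was called for 2 of 9 members, against 4.74% of all genes. For MMP3 the log2 difference at 30 weeks exceeded that at 15 weeks by 4.67 ± 1.06 (SE; edgeR adjusted p = 0.0158). For TIMP3 the corresponding value was -1.39 ± 0.286 (SE; edgeR adjusted p = 0.00823). Neither call was stable to single libraries of 15 weeks, since the MMP3 call was lost without 15-week control replicate 2 (0.12) or exposed replicate 1 (0.0593) or 30-week control replicate 1 (0.0564), and the TIMP3 call without 15-week control replicate 1 (0.0603) or exposed replicate 2 (0.098). The MMP3 value ranged from 3.96 without 15-week control replicate 2 to 7.95 without 30-week control replicate 2. MMP1, at 4.37 ± 1.37 (SE; edgeR adjusted p = 0.0943), and PLAU, at -0.79 (0.0773), did not pass, but both did without 30-week exposed replicate 2. Leaving out that sample also raised the calls over all genes, from 794 of 16740 to 1519 of 16694.

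The members were then followed along time within each arm. Between 15 and 30 weeks 7 of 9 members were called in controls, against 50.3% of all genes, and 3 of 9 in exposed cells, against 46.0% of all genes. These contrasts cross the batches, and time and batch cannot be told apart in them. TIMP2 rose in both arms, from 174 to 419 CPM in controls (log2 change 1.26, edgeR adjusted p = 0.00032) and from 171 to 477 CPM in exposed cells (1.48, edgeR adjusted p = 1e-04). MMP9 and ADAM12 also rose in both arms, MMP9 by 2.04 and 2.23 and ADAM12 by 0.87 and 0.59 on the log2 scale in controls and exposed cells (edgeR adjusted p = 0.00214 and 0.00151 for MMP9, 0.00164 and 0.0162 for ADAM12). The MMP9 rise in exposed cells rested on 15-week counts of 8 and 2, and was 3.46 without 15-week exposed replicate 1 and 1.59 without replicate 2. The ADAM12 rise in exposed cells lost its call without 15-week exposed replicate 1 (edgeR adjusted p = 0.114) or 2 (0.0762).

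TIMP3 and PLAU rose in controls, TIMP3 from 15.3 to 39.4 CPM (log2 change 1.37, edgeR adjusted p = 8.72e-05) and PLAU from 121 to 189 CPM (0.65, edgeR adjusted p = 0.0057, or 0.0712 without 15-week control replicate 1). In exposed cells neither was called, with changes of -0.02 for TIMP3 and -0.14 for PLAU. MMP1 and MMP3 fell further in controls, from 128 to 13 counts for MMP1 and from 48 to 3 counts for MMP3 summed over samples. Relative to scaled library size the 15-week controls were higher by a ratio of 11.8 (95% counting interval 6.69 to 22.9) for MMP1 and 19.3 (6.21 to 96.6) for MMP3. In exposed cells the fitted changes of 0.83 for MMP1 and 0.56 for MMP3 were not called. By itself, a call in a single arm does not test a difference between the arms. The direct comparison given above was called for MMP3 and TIMP3 but not for MMP1 or PLAU. For MMP1, MMP3, TIMP3 and PLAU the level called changed between 15 and 30 weeks was that of the controls. In the same controls MYOD1 went from 2.02 to 5.72 CPM at 15 weeks to 65.8 to 106 CPM at 30 weeks, and KRT8 from 521 to 569 CPM to 127 to 187 CPM, and the part of these markers in the result was not tested. In exposed cells KRT8 was at 530 to 646 CPM and 541 to 710 CPM at these times.

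The other genes of the pathway at 30 weeks came from lists of related genes. Of 17 other MMPs 9 were tested, of which 5 rose and 1 fell, where 23.7% of all genes were called. The membrane-anchored MMP15 rose from 6.38 ± 0.875 to 18.8 ± 3.24 CPM (log2 difference 1.56, edgeR adjusted p = 1.99e-06), MMP11 from 0.704 to 1.68 CPM, and MMP16 and MMP24, both membrane-anchored, by 0.93 and 0.86 on the log2 scale. MMP28 rose by 1.49 on the same scale at a level of 1.23 CPM in exposed cells. MMP19 was the member of that list that fell, from 14.7 to 8.36 CPM. Among the inhibitors TIMP1 had 128 ± 16.8 CPM in the 3 controls against 118 ± 10.8 CPM in the 4 exposed samples (SD, edgeR adjusted p = 0.515), RECK was not called, and TIMP4, at 0.519 and 1.17 CPM, rose.

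Of 15 ADAM and ADAMTS genes tested 4 rose and 5 fell at 30 weeks, again beside 23.7% of all genes. The aggrecan-cleaving ADAMTS5 was at 31.5 ± 5.23 CPM in the 3 controls but 0.429 ± 0.291 CPM in the 4 exposed samples (SD), a log2 difference of -6.17, and ADAMTS1 fell by 2.26 and ADAMTS14 by 1.43. ADAMTS2, a procollagen-processing enzyme, rose by 1.62, ADAMTS4 by 0.96 and ADAM15 by 0.58 on the log2 scale. The urokinase receptor PLAUR was not called, at 61.9 and 50.1 CPM (edgeR adjusted p = 0.183). Of 11 AP-1 and ETS factors ETS2 rose by 0.58, JUN fell by 0.48 and JUNB fell by 0.45 on the log2 scale, while FOS and FOSL1 were not called, so that 3 of 11 passed, near the 23.7% of all genes. At 24 h and 15 weeks 0 genes of the lists were called, as for 0% of all genes tested.

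**Figure D4:**
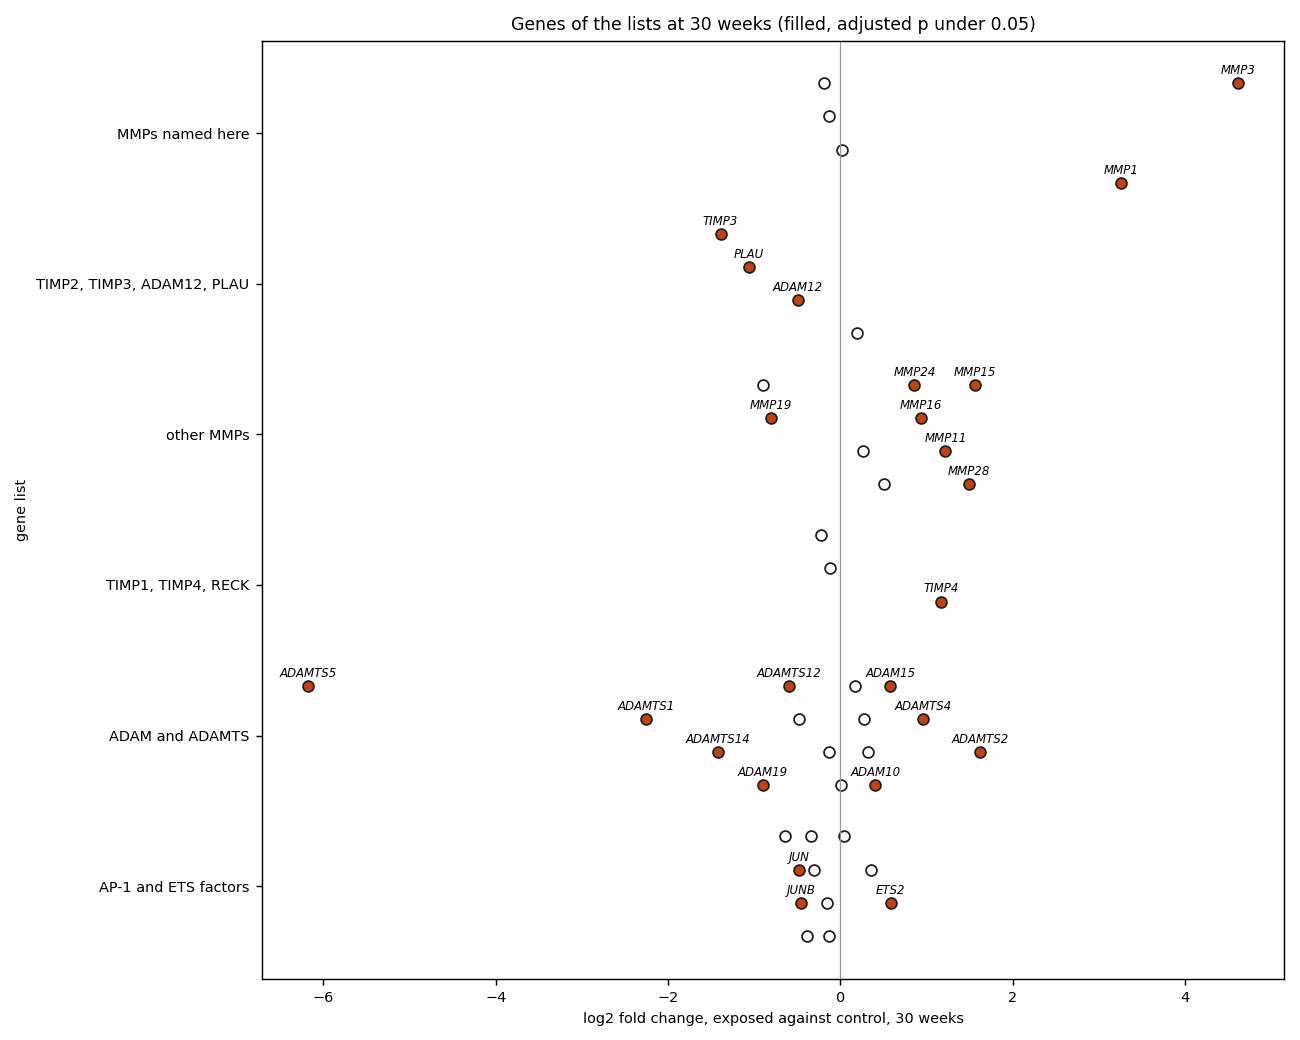
Log2 fold change of exposed (4 samples) against control (3 samples) cells at 30 weeks for the tested genes of 6 lists, which are given along the vertical axis with points offset for legibility. Filled and named points passed an adjusted p under 0.05. The 9 tested of the 10 genes described here are the upper 2 lists, and ADAMTS5 at -6.17 lies farthest to the left.

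Non-member genes whose means over the 6 groups ran closest to those of 2 members were sought among 13441 genes of at least 1 CPM. Genes of the other lists were not excluded. Closeness was the root mean square difference of centred log2 profiles. For MMP3 the closest genes were CDCP1 at 0.373, ALDH1A3 at 0.506 and PRXL2A at 0.593. For TIMP3 they were CDK5R1 at 0.084, FMNL1 at 0.104 and SPEG at 0.107. These are descriptions over 6 group means.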

How the data were processed

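RNA from 15 BEAS-2B samples was prepared with a stranded total RNA kit after removal of ribosomal RNA. Per the methods and labels, the authors used Rfastp for trimming and GRCh38 for mapping, and deposited raw featureCounts counts per Entrez gene, with versions and strand setting not given in the sources used here. Groups came from the labels. Counts were filtered with filterByExpr (minimum count 10), scaled by TMM and fitted by the quasi-likelihood test of edgeR 4.0.16 in R 4.3.3 on all 15 samples with 6 group means, and p-values were adjusted over all 16740 tested genes (threshold 0.05). The script was tested on simulated data. Alternatives were limma 3.58.1 (voom, alone or with sva 3.50.0), DESeq2 1.42.0, other scalings, filters and thresholds, and each replicate left out. CPM are counts on scaled library sizes, and per-kb values used GENCODE 44 canonical transcripts. 6 abundant small RNAs took 9.75% to 31% of counts. At 30 weeks this share was 22.3% to 31% in controls and 17% to 21.5% in exposed samples, without overlap. The TMM factors there were 0.739 to 0.918 and 0.932 to 1.04. Without these RNAs 3919 genes were called at 30 weeks in place of 3961. Members and lists were chosen with earlier results of these data known. All members were named, together with TIMP1, PLAUR and up to 3 called genes of each list and direction by size, at 1 CPM or more; RECK, MMP24, MMP28, TIMP4, FOS, FOSL1, C10orf55, WTAPP1 and the markers were named after their values were seen. A gene that the rule also takes in is not reported here.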

Additional observations from a re-analysis of the deposited data

Results flagged for a closer look

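At 30 weeks MMP1 in exposed replicate 2 was at 4.87 CPM, far above the other exposed samples at 0.176 to 0.797 CPM. MMP14 in exposed replicate 3 was at 67.5 CPM, below the other exposed samples at 71.7 to 72.6 CPM. Both gaps exceeded the share of the group's range that Dixon's limit allows for 4 samples, which chance passes in about 1 of 20 groups. The exposure effect differed between 30 and 15 weeks for MMP3, by 4.67 on the log2 scale, and for TIMP3, by -1.385, both in an interaction term of the edgeR fit (adjusted p = 0.0158 and 0.00823).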

How the results depend on the processing

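At 30 weeks 5 members were called, and 3 (MMP3, TIMP3, PLAU) with each time point fitted alone or an adjusted p under 0.01, and 3 to 5 with 1 replicate left out. MMP3, TIMP3 and PLAU were called in all 16 alternatives. MMP1 was not called in 5 of 16, limma-voom (adjusted p = 0.104) and the time point alone (0.0925) among them, and ADAM12 in 5 of 16 (0.113 with the time point alone). The difference between 30 and 15 weeks was called for 2 members, 4 with surrogate variables, 1 at an adjusted p under 0.01 and 1 to 4 with 1 replicate left out. Between 24 h and 15 weeks the 4 calls in controls became 2 at an adjusted p under 0.01 and 2 to 3 with 1 replicate left out. The 5 calls in exposed cells became 8 with surrogate variables, 3 at an adjusted p under 0.01, 3 at a fold change of at least 2 and 1 to 4 with 1 replicate left out. Calls over all genes shifted too. With surrogate variables they went from 794 to 1973 for the difference between 30 and 15 weeks. In exposed cells between 24 h and 15 weeks they went from 4349 to 6383. An adjusted p under 0.01 left 2166 at 30 weeks, 403 for the difference, 2472 in controls and 2548 in exposed cells. At a fold change of at least 2 the exposed cells had 2242, and the 30-week time point alone gave 2370. Without 30-week exposed replicate 2 calls rose to 5704 at 30 weeks and 1519 for the difference. In exposed cells between 24 h and 15 weeks that fit gave 5720. With any other replicate left out the difference had 393 to 761 calls. DESeq2 with all samples gave 1118 for the difference. For exposed against control cells at 15 weeks the main fit called 0 genes and the time point alone 304. The cause of these shifts was not tested. Signs changed only for MMP2 at 30 weeks, not called in any setting, at -0.034 with limma-voom, -0.009 with upper-quartile scaling, -0.108 with the replicate block and -0.104 to 0.199 with 1 replicate left out, and for MMP9, at -0.294 to 0.080 with 1 replicate left out. Whether replicate numbers pair the samples was not settled. Correlations of deviations between same-numbered samples were -0.118, 0.303 and 0.098 at 30 weeks. With 2 samples a group, 24 h and 15 weeks gave a single value each, -0.06 and 0.029. The replicate block gave 5 called members at 30 weeks and 4386 called genes in place of 3961. MMP9, MMP1 and MMP3 rest on few counts, which limits their precision.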

Other observations

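Between 24 h and 15 weeks, in controls of batch 1, genes of the plasminogen system were called in both directions. SERPINE2 fell from 117 to 47.8 CPM and PLAUR from 55 to 36.4 CPM (edgeR adjusted p = 0.0478). SERPINB2 was at 1.88 CPM at 24 h and 0.0600 CPM at 15 weeks. The tissue plasminogen activator PLAT rose, from 15.0 to 48.0 CPM (edgeR adjusted p = 3.4e-06). In exposed cells the same directions were called for these 4 genes. These genes were named after their values were seen.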
